A study of Mus musculus with 8 samples.

Results

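Regulators of G-protein signalling (RGS proteins) shorten the signal of a hormone receptor. A receptor coupled to a heterotrimeric G protein loads the G alpha subunit with GTP, the active alpha and beta-gamma subunits act on enzymes and channels, and an RGS protein speeds the hydrolysis of that GTP. In the ovary, follicular cells read gonadotropins, prostaglandins and many local signals through such receptors. The 10 RGS genes described here were taken by name from 24232 genes on a mouse array. They comprise 5 members of the R4 subfamily, which act on Gi and Gq (Rgs2, Rgs3, Rgs4, Rgs5 and Rgs16). Another 1 is of the R7 subfamily, which works bound to the beta subunit encoded by Gnb5 (Rgs7). The list also holds 3 members of the R12 subfamily (Rgs10, Rgs12 and Rgs14) and 1 member of the RZ subfamily (Rgs19). On the array they are read by 19 probes.

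The cells came from preantral follicles of ovaries of Swiss mice aged 8 weeks, which were dispersed and kept as monolayers for 9 days in all. Each replicate is a pool of 5 mice grown on its own. Cells received 12 pmol of a control siRNA or of an siRNA against FOXL2, a transcription factor of granulosa cells, and every well also received a pDsRed plasmid. For the last 10 h before lysis they were given vehicle or 100 nM 17β-estradiol (E2), in medium freed of hormones. Either siRNA was combined with vehicle or with E2, which gives 4 groups of 2 one-colour arrays each. A transient siRNA lowers its target only in part and only in cells that take it up. The number of arrays limits the precision of every value below.

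The levels given are log2 scaled signals, that is the log2 of a spot intensity after scaling to the 75th percentile of its array. A level belongs to its own probes, so levels are compared between arrays and never between genes. The target of the siRNA did not fall as a gene: Foxl2 changed by 0.18 over both treatments (SE 0.10, limma adjusted p = 0.335). Its bright probe, A_55_P2037732, changed by 0.18 (adjusted p = 0.364) and its dim probe, A_55_P2041668, by -0.97 (adjusted p = 0.0200). The gene value is the linear mean of both probes, so that it repeats the bright probe. That probe read 13883 to 22474 scaled units, beside 44.6 to 128 for the dim one. The groups are therefore named as arrays labelled FOXL2 siRNA or control siRNA, and each direction rests on those labels. Of 12 granulosa cell markers, 9 were well above background on 8 of 8 arrays, among them Amhr2 and Inha, while Fshr and Amh were at background on every array. Some markers of endothelium (Cdh5, Tek, Emcn, Cldn5), of immune cells (Ptprc, Lyz2, Tyrobp) and of the zona pellucida of oocytes (Zp1, Zp2, Zp3) were also well above background on 0 of 8 arrays. Other genes of the same lists were well above background on 8 of 8 arrays, namely Kdr, Pecam1 and Esam of the endothelial list, Itgam, Csf1r, Cd68 and Cd14 of the immune list and Gdf9 of the oocyte list, and they were bright for Kdr and Itgam, with group means from 10.27 to 10.87 and from 10.28 to 10.45. Among smooth muscle markers, Acta2 was bright, and it split by replicate number, from 11.88 to 11.99 in the replicates numbered 1 and from 13.35 to 13.55 in those numbered 2.

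Rgs2 and Rgs4 fell most and Rgs16 rose most, as given below, and these 3 genes lie on mouse chromosome 1 with Rgs5 and Rgs7. Rgs4 is the next protein-coding gene to Rgs5, Rgs16 the next to Rgs8, and Rgs2 the next to Rgs13. Their promoters are shown because these are the genes that moved with either treatment. Each run holds the 250 bases before the RefSeq start of the gene, read on the strand of the gene in assembly GRCm38.p6. Capitals mark the CCAAT box, an A/T-rich element with the letters TAAAAG, the half-site TGACG of a cAMP response element and the forkhead core TAAACA, each on either strand. The matches marked do not overlap each other. The Rgs2 window is chr1:144004150-144004399 on the minus strand, the Rgs4 window chr1:169747643-169747892 on the minus strand, and the Rgs16 window chr1:153740103-153740352 on the plus strand.
Rgs2: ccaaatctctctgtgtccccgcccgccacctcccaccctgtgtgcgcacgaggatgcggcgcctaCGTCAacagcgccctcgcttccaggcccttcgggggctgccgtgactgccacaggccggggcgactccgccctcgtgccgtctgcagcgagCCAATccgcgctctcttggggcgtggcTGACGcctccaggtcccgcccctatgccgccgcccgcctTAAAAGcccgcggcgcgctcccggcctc
Rgs4: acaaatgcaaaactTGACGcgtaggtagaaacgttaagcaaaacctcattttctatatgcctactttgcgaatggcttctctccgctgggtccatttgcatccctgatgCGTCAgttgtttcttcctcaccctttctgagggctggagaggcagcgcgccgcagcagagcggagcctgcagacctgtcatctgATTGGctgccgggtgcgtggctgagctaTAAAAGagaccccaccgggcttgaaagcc
Rgs16: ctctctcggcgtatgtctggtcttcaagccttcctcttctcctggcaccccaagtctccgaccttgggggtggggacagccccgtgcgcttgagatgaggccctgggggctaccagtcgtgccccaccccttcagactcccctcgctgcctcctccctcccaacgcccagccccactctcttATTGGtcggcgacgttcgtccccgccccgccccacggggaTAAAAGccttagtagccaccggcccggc

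The 3 windows share a TAAAAG that starts 28 or 29 bases before the start of the gene, and a CCAAT box that starts 94 bases before it in Rgs2, 57 in Rgs4 and 68 in Rgs16. Among all 32851 mouse windows of this length, 13.6% hold TAAAAG and 33.8% hold CCAAT. Rgs2 and Rgs4, which fell, each hold 2 matches to TGACG, at 185 and 67 bases before the start in Rgs2 and at 236 and 141 in Rgs4. Rgs16, which rose, holds none. The window of Rgs10, which was also called lower with E2, holds none either. A window of Rgs12, which was not called, holds a match 82 bases before its start. Of all windows, 17.8% hold TGACG in any number, and the share with 2 matches was not counted. Whether matches to TGACG go with the direction of change was not tested. A forkhead core, present in 12% of all windows, was found in none of the 3 windows printed above. It is present in a window of Rgs3, 98 bases before its start, and in the window of Rgs5. The Rgs2 window has a GC content of 72.4%, the Rgs16 window 66.4% and the Rgs4 window 53.6%, beside a median of 52.4% over all windows. Of the 10 members, 9 matched a promoter window. These matches describe letters and not bound sites.

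Rgs5, Rgs7 and Rgs14 were too dim to be tested, since their median scaled signal was under 10 units. Rgs5, a marker of pericytes, was well above background on 0 of 8 arrays, with levels from 1.21 to 1.65. Rgs7 lay between 2.68 and 4.49 and Rgs14 between 1.56 and 4.83, and each was well above background on a single array, replicate 1 of control siRNA with vehicle. For these 3 members no difference between groups could be measured. The other 7 members were well above background on 8 of 8 arrays.

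**Figure D1:**
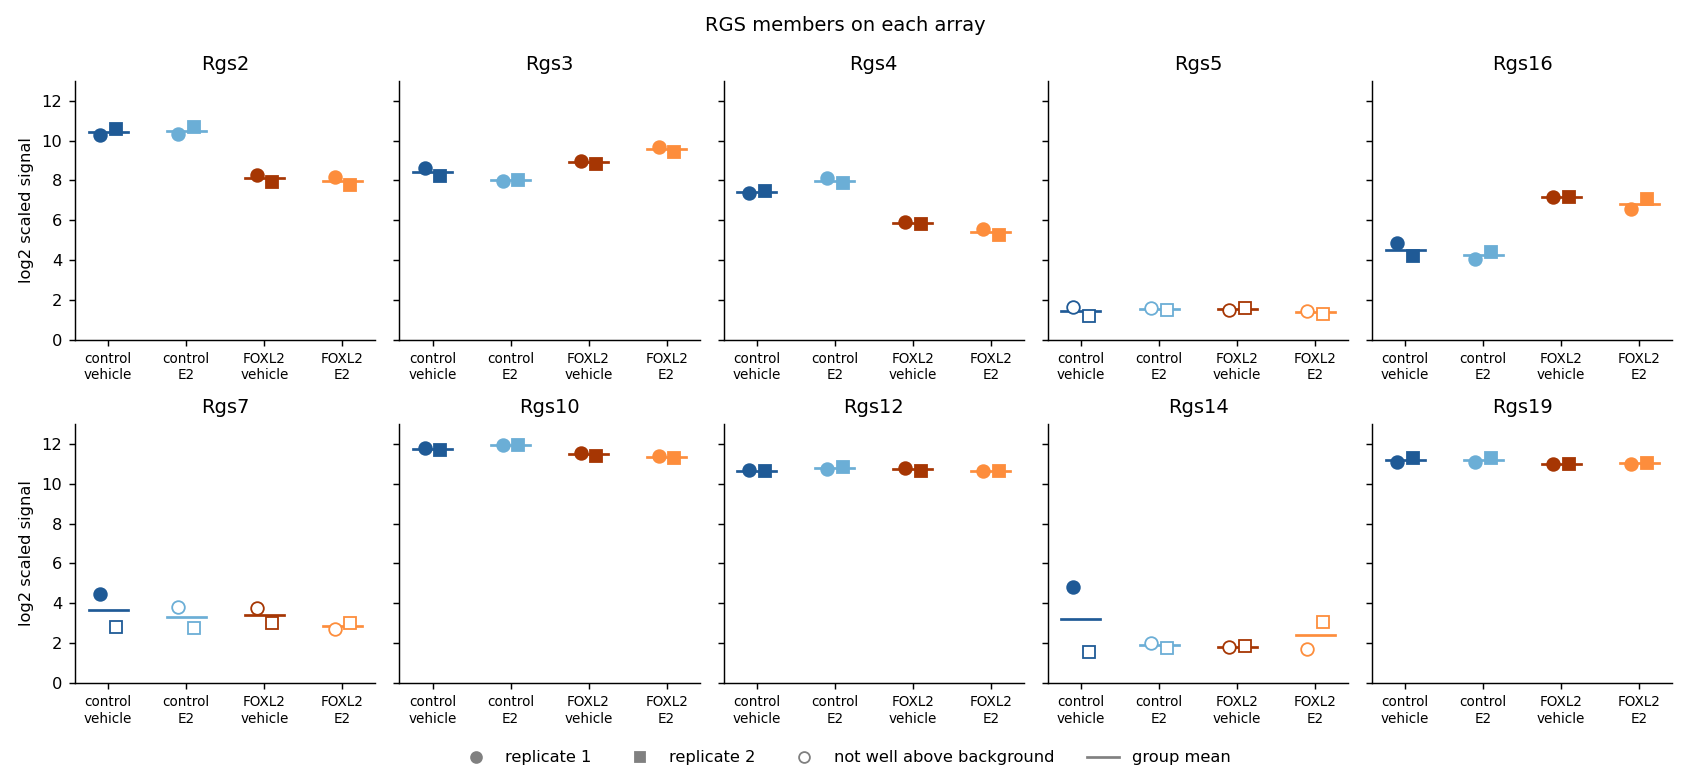
Log2 scaled signal (y axis) of the 10 RGS members on each of the 8 arrays (points, 2 per group) with group means (lines). Open symbols are arrays where the gene was not well above background. Rgs2 and Rgs4 are lower and Rgs16 is higher on the 4 arrays labelled FOXL2 siRNA than on the 4 labelled control siRNA, while Rgs5 stays between 1.21 and 1.65.

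The first comparison asks what the siRNA against FOXL2 did to the family. In the arrays labelled FOXL2 siRNA, Rgs2 and Rgs4 fell and Rgs16 rose with vehicle, and Rgs3 rose and Rgs10 fell in addition with E2. With vehicle this makes 3 of the 7 members tested, 1 higher and 2 lower (limma, adjusted p under 0.05), where 6.53% of all 15645 genes tested were called, 3.6% higher and 2.93% lower. With E2 it makes 5 of 7, 2 higher and 3 lower, where 4.38% were called, 2.25% higher and 2.13% lower. Taken over both treatments the same 5 members were called, where 12.6% of all genes were, 6.39% higher and 6.18% lower. By the methods' rule, which asks for a log2 difference of 1 or more and over 2 times the summed SDs, 3 members passed with vehicle and 4 with E2, which left out Rgs10, where 2.94% and 2.35% of all genes passed. The members went both ways, and the median change of the 7 was -0.22 with vehicle, -0.18 with E2 and -0.19 over both treatments, beside -0.0098, 0.0014 and -0.0026 for all genes. With the replicate number as a block, 5 members were called with vehicle, where 18.7% of all genes were. In RNA from whole cultures, fewer cells of a type and less RNA per cell cannot be told apart.

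Rgs2, which acts mainly on Gq, had the largest fall of the members with vehicle and over both treatments, while with E2 that of Rgs4 was slightly larger. Its levels were 10.31 and 10.58 in the control siRNA arrays given vehicle, 10.32 and 10.67 in those given E2, 8.29 and 7.93 in the FOXL2 siRNA arrays given vehicle, and 8.16 and 7.78 in those given E2. The 4 arrays labelled FOXL2 siRNA lay far below the other 4, whichever treatment was given. The change was -2.33 (SE 0.20, limma adjusted p = 0.00138) with vehicle, a 5.03-fold lower signal, and -2.52 (SE 0.20, adjusted p = 0.00132) with E2, a 5.74-fold lower one. Within replicate number 1 the change with vehicle was -2.01 and within number 2 it was -2.65. A bright probe carries most of this signal, A_55_P2109857, which changed by -2.43 over both treatments (adjusted p = 0.000182). A dim probe, A_52_P378968, was well above background on the 4 arrays labelled control siRNA and on none of the others.

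Rgs4, which acts on Gi and Gq, fell as well. It was at 7.37 and 7.46 in the control siRNA arrays given vehicle, 8.11 and 7.87 in those given E2, 5.93 and 5.81 in the FOXL2 siRNA arrays given vehicle, and 5.56 and 5.27 in those given E2. No group of arrays overlapped another, and the distance between the siRNAs was wider with E2. The change was -1.54 (SE 0.17, limma adjusted p = 0.00308) with vehicle, 2.92-fold lower, and -2.57 (SE 0.17, adjusted p = 0.00132) with E2, 5.95-fold lower. Both of its probes moved alike, by -2.08 for A_55_P2026734 and -2.05 for A_55_P2026738 over both treatments. With the normexp background correction, which adds an offset to every spot, the change was called but smaller, -0.88 with vehicle and -1.50 with E2.

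Rgs16, another inhibitor of Gi and Gq signalling, moved the opposite way. Its single probe read 4.84 and 4.19 in the control siRNA arrays given vehicle, 4.07 and 4.41 in those given E2, 7.15 and 7.14 in the FOXL2 siRNA arrays given vehicle, and 6.56 and 7.05 in those given E2. Every array labelled FOXL2 siRNA was above every array labelled control siRNA. Rgs16 rose by 2.63 (SE 0.28, limma adjusted p = 0.00291), or 6.20-fold, with vehicle and by 2.57 (SE 0.28, adjusted p = 0.00448), or 5.92-fold, with E2. Under normexp these values were 1.30 and 1.16, and both were called.

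Rgs3 also rose, most clearly with E2. Its levels were 8.61 and 8.24 in the control siRNA arrays given vehicle, 7.99 and 8.02 in those given E2, 8.99 and 8.83 in the FOXL2 siRNA arrays given vehicle, and 9.69 and 9.44 in those given E2. The 4 arrays labelled FOXL2 siRNA were higher than the other 4, and those with E2 were the highest. With E2 the change was 1.56 (SE 0.15, limma adjusted p = 0.00282), or 2.96-fold, and with vehicle it was 0.49 (SE 0.15, adjusted p = 0.120), which was called with the replicate block only (adjusted p = 0.00919).

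Rgs3 makes several transcripts, and 3 of its 4 probes could be fitted. A_55_P2027117 changed by 1.15 with vehicle (adjusted p = 0.0646) and by 1.33 with E2 (adjusted p = 0.0487). A_55_P2027107 changed by -0.07 with vehicle (adjusted p = 0.876) and by 0.86 with E2 (adjusted p = 0.0286). A_55_P2027102, the brightest, changed by 0.61 (adjusted p = 0.144) and 1.75 (adjusted p = 0.00457), and A_55_P2027112 was at background on every array. Over all 31521 probes tested, 3.61% were called with vehicle and 2.4% with E2.

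**Figure D2:**
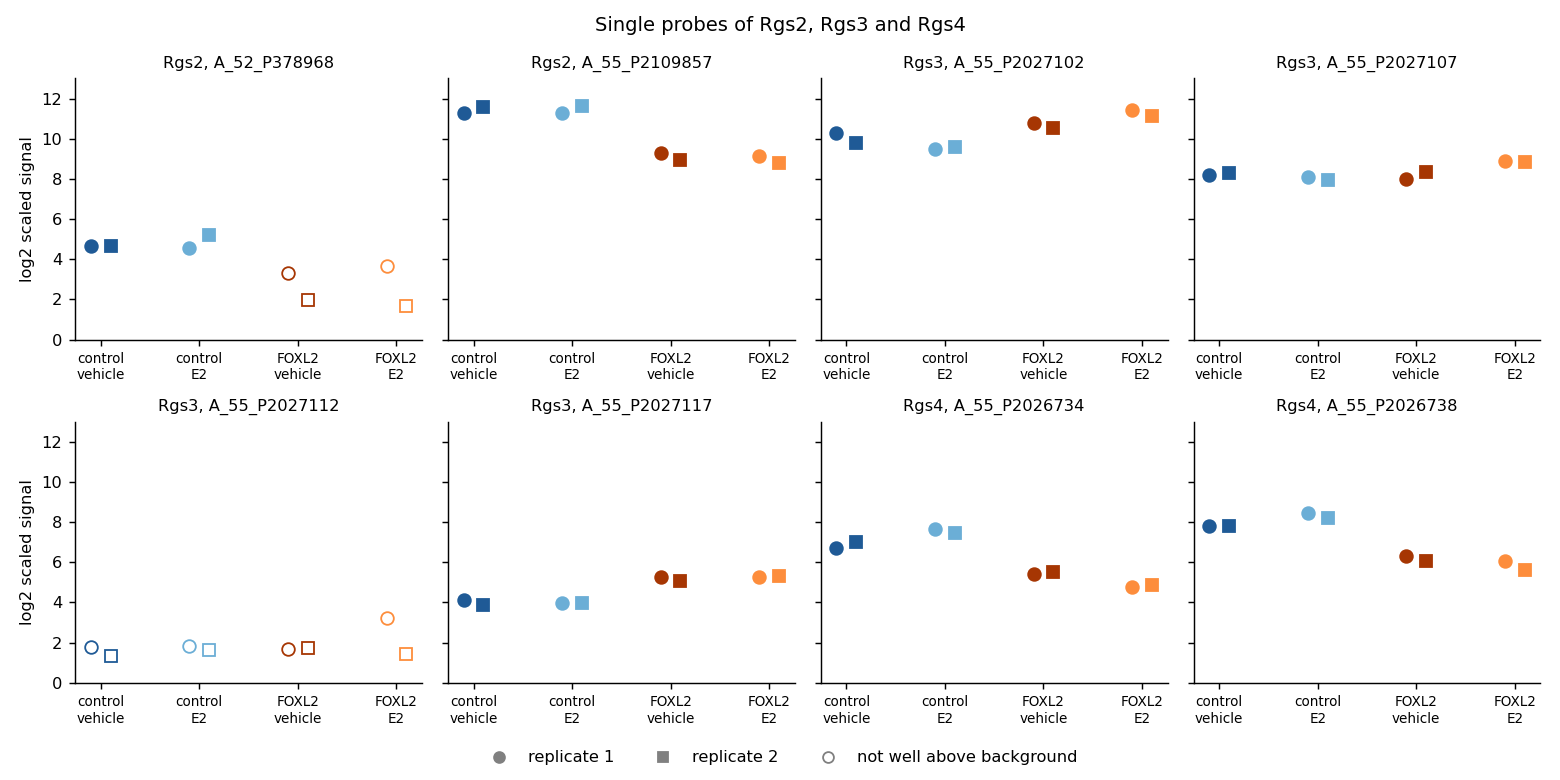
Log2 scaled signal (y axis) of each probe of Rgs2, Rgs3 and Rgs4 on the 8 arrays, 2 points per group, with open symbols where a probe was not well above background. Both Rgs4 probes fall with FOXL2 siRNA, while among the Rgs3 probes the arrays of both siRNAs overlap with vehicle for A_55_P2027107 and not for A_55_P2027117 or A_55_P2027102.

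Of the R12 and RZ members, which mostly act on Gi, Rgs10 fell slightly. It lay at 11.79 and 11.73 in the control siRNA arrays given vehicle, 11.96 and 11.95 in those given E2, 11.57 and 11.40 in the FOXL2 siRNA arrays given vehicle, and 11.42 and 11.29 in those given E2. The arrays of the siRNAs did not overlap, but the distance was small. The change with E2 was -0.60 (SE 0.09, limma adjusted p = 0.0143), or 1.51-fold lower. This call was lost when replicate 2 of FOXL2 siRNA with E2 was dropped (adjusted p = 0.109) and when replicate 1 or 2 of control siRNA with E2 was (adjusted p = 0.100 and 0.0878). With vehicle the change was -0.27 (SE 0.09, adjusted p = 0.152), called with the replicate block only (adjusted p = 0.0358).

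Rgs12 and Rgs19 were not called with either treatment. Rgs12, a large protein that also binds Ras, lay between 10.63 and 10.87 on the 8 arrays, and the siRNAs overlapped. Its change over both treatments was -0.05, with a 95% interval from -0.20 to 0.10. Rgs19 lay between 11.12 and 11.30 with control siRNA and between 10.98 and 11.07 with FOXL2 siRNA, with no overlap. Its change was -0.19, with an interval from -0.35 to -0.03 (limma adjusted p = 0.128), and it was called with the replicate block (adjusted p = 0.0356). In all, 6 of the 7 members had no overlap between the 4 arrays labelled FOXL2 siRNA and the other 4, and 20.9% of all genes had none.

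**Figure D3:**
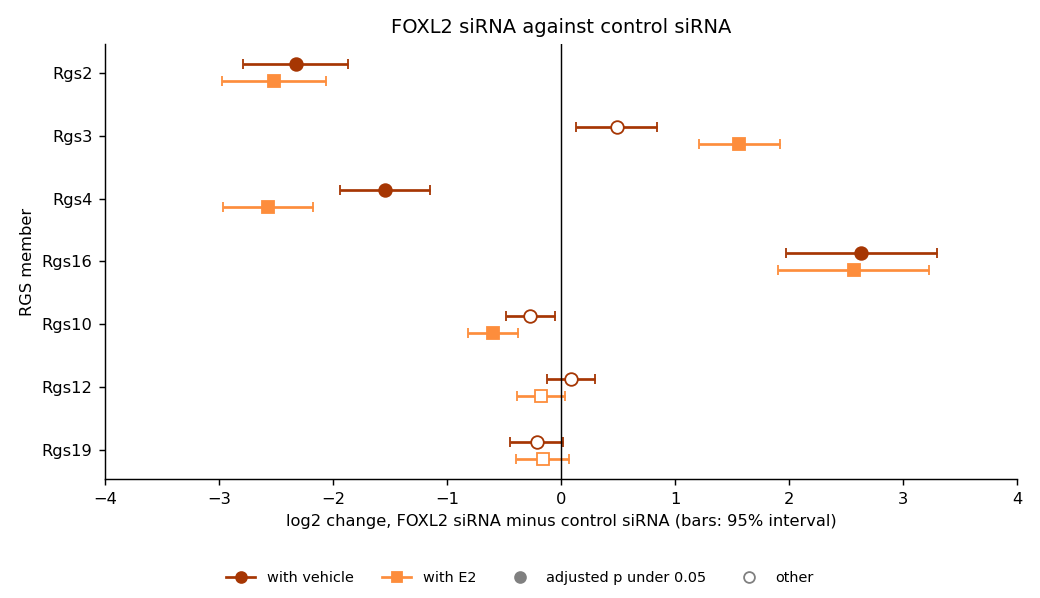
Change on the log2 scale (x axis) of the 7 tested members between FOXL2 siRNA and control siRNA, with vehicle (circles) and with E2 (squares), with 95% intervals of the limma fit. Filled symbols passed an adjusted p of 0.05, which were 3 members with vehicle and 5 with E2.

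Marker genes of other cells were set beside these changes. The summed signal of 9 pericyte and smooth muscle markers was 12.10 to 12.17 in the replicates numbered 1 and 13.45 to 13.67 in those numbered 2, with 0 of its 6 tested genes called between the siRNAs over both treatments by limma and 1 at an unadjusted p under 0.05. The 8 endothelial markers summed to 10.19 to 10.86 with control siRNA and 10.68 to 10.98 with FOXL2 siRNA, the 8 macrophage and other immune markers to 10.85 to 11.05 and 10.72 to 11.10, the 6 theca and stroma markers to 11.05 to 11.90 and 11.48 to 12.27, and the 8 oocyte markers to 6.89 to 7.74 and 7.16 to 7.63. In each of these lists the siRNAs overlapped and limma called 0 genes, of 3, 5, 3 and 3 tested, with 1, 1, 1 and 0 at an unadjusted p under 0.05, which 26.8% of all genes passed. Within each replicate number and treatment, the sum with FOXL2 siRNA was higher than with control siRNA for the endothelial markers, by 0.12 and 0.58 with vehicle and by 0.19 and 0.49 with E2, and for the theca and stroma markers, by 0.031 and 0.28 with vehicle and by 0.77 and 1.00 with E2. A sum adds linear signals and so follows its brightest genes. Between the siRNAs, the median change of the 3 tested theca and stroma markers was 0.16 with vehicle and 0.12 with E2. The endothelial sum was mostly Kdr, with group means of 1248 to 1874 scaled units. Group means were 44.88 to 51.07 for Pecam1 and 24.41 to 36.08 for Esam. The pericyte and smooth muscle sum split by replicate number as Acta2 did. With the replicate block over both treatments, 1 gene of each of these 4 lists was called, Kdr, Csf1r, Cyp17a1 and Ddx4, each higher with FOXL2 siRNA, and of the pericyte and smooth muscle markers 2 were, Des and Cnn1, 1 higher and 1 lower, where 27.7% of all genes were called. The 12 granulosa markers did not overlap in their sum, which was 17.02 to 17.12 with control siRNA and 17.21 to 17.39 with FOXL2 siRNA. The median change of the 10 tested was 0.036 over both treatments, so the sum does not describe the list as a whole. Of the 10 tested, limma called 4 over both treatments, where 12.6% of all genes were called. Inhbb was higher by 0.80, and Fst (-2.02), Hsd17b1 (-1.47) and Esr2 (-0.46) were lower. With the replicate block 7 were called, which added Amhr2, Cyp19a1 and Nr5a2, where 27.7% of all genes were. The part of these markers in the changes of the RGS members was not tested.

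The second comparison asks whether E2 moved the family with each siRNA. By limma, 0 of 7 members were called with control siRNA, where 0.0192% of all genes were called, and 0 of 7 with FOXL2 siRNA, where 0.0128% were. At an unadjusted p under 0.05, Rgs3 and Rgs4 passed with either siRNA, beside 4.58% and 3.06% of all genes. Rgs4 changed by 0.58 with control siRNA (SE 0.17, adjusted p = 0.799) and by -0.45 with FOXL2 siRNA (SE 0.17, adjusted p = 1). Rgs3 showed the mirror image, at -0.42 (SE 0.15, adjusted p = 0.974) and 0.66 (SE 0.15, adjusted p = 0.681). The latter was called with the replicate block only (adjusted p = 0.0224), where 0.6% of all genes were.

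The difference between the E2 effects of both siRNAs was tested directly. It was called for 0 of 7 members, where 0.243% of all genes were called, and 3 members and 4.9% of all genes passed an unadjusted p under 0.05. For Rgs3 it was 1.08 (SE 0.22, unadjusted p = 0.00120, limma adjusted p = 0.216) and for Rgs4 -1.03 (SE 0.24, unadjusted p = 0.00300, adjusted p = 0.340). With the replicate block both were called (adjusted p = 0.00333 and 0.0277), where 2.1% of all genes were. The third was Rgs10, at -0.33 (SE 0.13, adjusted p = 0.966). Within replicate number 1, Rgs3 changed with E2 by -0.62 with control siRNA and 0.70 with FOXL2 siRNA, and within number 2 by -0.22 and 0.61. Rgs4 changed by 0.74 and -0.37 within number 1 and by 0.42 and -0.53 within number 2.

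Rgs2 and Rgs16, with the widest distance between the siRNAs over both treatments, had E2 changes with 95% intervals that include 0. For Rgs2 they were 0.05 with control siRNA, with a 95% interval from -0.41 to 0.51, and -0.14 with FOXL2 siRNA, from -0.60 to 0.32. For Rgs16 they were -0.27, from -0.93 to 0.39, and -0.34, from -1.0 to 0.32.

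**Figure D4:**
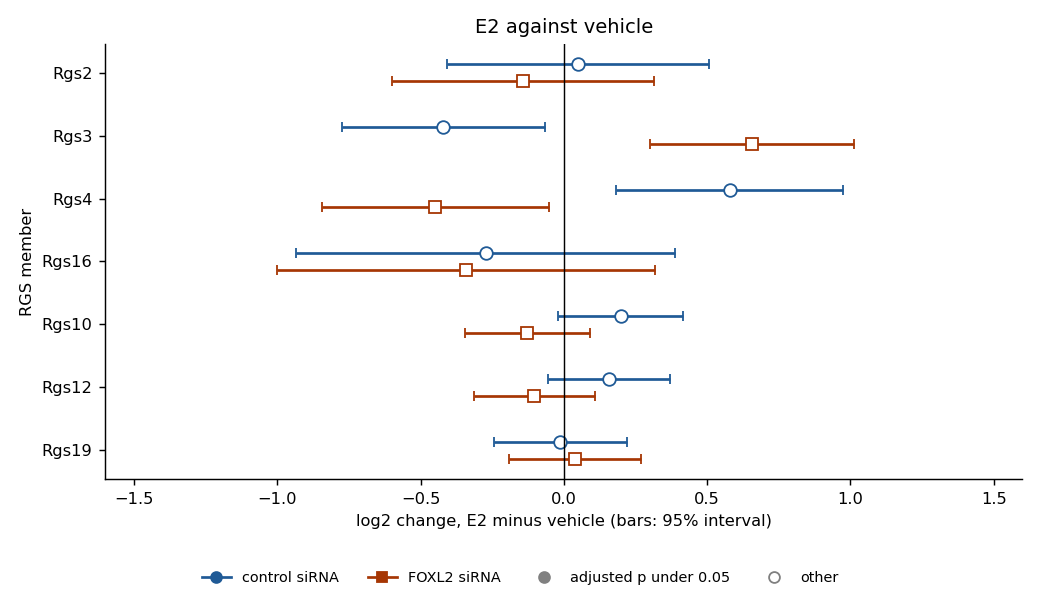
Change on the log2 scale (x axis) of the 7 tested members between E2 and vehicle, with control siRNA (circles) and FOXL2 siRNA (squares), with 95% intervals of the limma fit. No member passed an adjusted p of 0.05. The intervals of Rgs3 and of Rgs4 lie on opposite sides of 0 for both siRNAs.

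In 7 other lists of the pathway, 17 of 80 tested genes were called over both treatments (21.2%), where 12.6% of all genes were, 6.39% higher and 6.18% lower. With the replicate block 31 of the 80 were called, where 27.7% of all genes were. Of 13 other RGS family genes, 6 were tested and 1 was called. This was Rgs6, which like Rgs7 belongs to the R7 subfamily. Its levels were 6.83 and 7.29 in the control siRNA arrays given vehicle, 7.34 and 7.59 in those given E2, 6.57 and 6.77 in the FOXL2 siRNA arrays given vehicle, and 6.32 and 6.71 in those given E2, so that the siRNAs did not overlap. It fell by 0.67 (SE 0.15, limma adjusted p = 0.0279). The median of the list was 0.25, above 0. With the replicate block Rgs11 was called as well, as higher. Rgs8 and Rgs13, the neighbours of Rgs16 and Rgs2, and Rgs1, Rgs17 and Rgs18 were well above background on 0 of 8 arrays. Gnb5, the partner of Rgs7, was well above background on 8 of 8 arrays at 9.71 to 10.11 and changed by 0.06 (adjusted p = 0.763), and Rgs7bp, which anchors R7 proteins to the membrane, was so on 1 of 8. Of 14 proteins with an RGS-like domain or other G alpha regulators, such as Axin1, Gpsm2 and Ric8a, 0 were called by limma, with 4 at an unadjusted p under 0.05 and a median of -0.08, and 4 were called with the replicate block.

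Among the G-protein subunits, 2 of 13 alpha subunits were lower over both treatments, where 6.18% of all genes were, and the other 11 were not called, with a median of -0.08. Both of those called act on phospholipase C, Gnaq (-0.38, SE 0.07, limma adjusted p = 0.0138) and Gna14 (-0.38, SE 0.09, adjusted p = 0.0291). With the replicate block 5 alpha subunits were lower, where 27.7% of all genes were called in either direction. Of 13 beta and gamma subunits, Gnb3 and Gng13 were higher and Gnb4 was lower, 3 of 13 where 12.6% of all genes were called, with a median of 0.04. Gnb3 was not well above background on the arrays labelled control siRNA, and was at least 2.17-fold higher in those labelled FOXL2 siRNA with vehicle and at least 3.63-fold higher with E2, of which the fit called that with E2 (limma adjusted p = 0.00752) and not that with vehicle (adjusted p = 0.143). The Gnb3 call with E2 was lost in 2 of 8 fits without 1 array. Gng13 rose by 1.27 (SE 0.25, adjusted p = 0.0160) and Gnb4 fell by 0.43 (SE 0.07, adjusted p = 0.00877).

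Receptor kinases and arrestins, which switch off the receptor where RGS proteins switch off the G protein, had 3 of 8 tested members lower, where 6.18% of all genes were, and none higher, with a median of -0.15. These were Grk6 (-0.50, SE 0.09, limma adjusted p = 0.00904), Arrb1, a beta-arrestin (-0.43, SE 0.10, adjusted p = 0.0359), and Sag, the arrestin of the retina (-0.97, SE 0.18, adjusted p = 0.0125). Of 10 effectors tested, 2 were higher over both treatments, where 6.39% of all genes were, with a list median of 0.20. These were the adenylyl cyclase Adcy6 (0.32, SE 0.07, adjusted p = 0.0230) and the phospholipase Plcb4 (0.65, SE 0.12, adjusted p = 0.0141). With vehicle, Plcb1 was called as well (1.13, SE 0.26, adjusted p = 0.0412). The replicate block called Plcb1 over both treatments too, as higher, where 27.7% of all genes were called.

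Of 29 receptors for ligands that act through Gq or Gi, 16 were tested, of which 3 were higher and 3 lower over both treatments, where 6.39% and 6.18% of all genes were, with a median of 0.25. With the replicate block 6 were higher and 5 lower, where 27.7% of all genes were called in either direction. Adora1, an adenosine receptor coupled to Gi, read 7.56 and 6.82 in the control siRNA arrays given vehicle, 7.79 and 7.36 in those given E2, 9.77 and 9.13 in the FOXL2 siRNA arrays given vehicle, and 8.91 and 8.54 in those given E2. The siRNAs did not overlap, and Adora1 rose by 1.70 (SE 0.22, limma adjusted p = 0.00252). Adra1d, an adrenergic receptor coupled to Gq, was well above background on no array of control siRNA with E2, and was at least 3.36-fold higher with FOXL2 siRNA and E2 (limma adjusted p = 0.0101). That call with E2 was lost in 4 of 8 fits without 1 array and under normexp (limma adjusted p = 0.0531). Lpar2, a receptor for lysophosphatidic acid, rose by 0.37 (SE 0.09, adjusted p = 0.0375).

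Grpr, a bombesin-type receptor coupled to Gq, was not well above background in either group labelled FOXL2 siRNA, and was at least 4.07-fold lower there with vehicle and at least 3.77-fold lower with E2. The fit called it over both treatments (limma adjusted p = 0.00837) and with vehicle (adjusted p = 0.0429), but not with E2 (adjusted p = 0.0814). The call with vehicle was lost in 6 of 8 fits without 1 array. It was also lost under no filter and no intensity trend (limma adjusted p = 0.0851 and 0.0861). Ackr3, which binds chemokines and recruits arrestin, fell by 2.89 (SE 0.77, limma adjusted p = 0.0477), and both arrays numbered 2 of FOXL2 siRNA were at background for it. Htr1d, a serotonin receptor coupled to Gi, fell by 1.17 (SE 0.20, adjusted p = 0.00770). Under normexp its change over both treatments was -0.28 and was not called (adjusted p = 0.0739). The changes over both treatments of Sag (-0.30), Gng13 (0.48), Gnb3 (0.54), Adra1d (0.45), Grpr (-0.62), Ackr3 (-1.12) and Rgs6 (-0.39) were called but also smaller by over 1.5 times. Of the 80 tested genes of these 7 lists, limma called 0 for E2 with either siRNA and 0 for the difference between the E2 effects. Of all genes it called 0.0192% with control siRNA, 0.0128% with FOXL2 siRNA and 0.243% for the difference. The replicate block called 1 of the 80 with control siRNA (Ednra), 2 with FOXL2 siRNA (Ednra and Adora1) and 3 for the difference (Ednra, Adora1 and Rgs11). Of all genes the block called 1.2%, 0.6% and 2.1%. At an unadjusted p under 0.05, 5 of the 80 passed for control siRNA, 3 for FOXL2 siRNA and 6 for the difference. Of all genes 4.58%, 3.06% and 4.9% did.

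**Figure D5:**
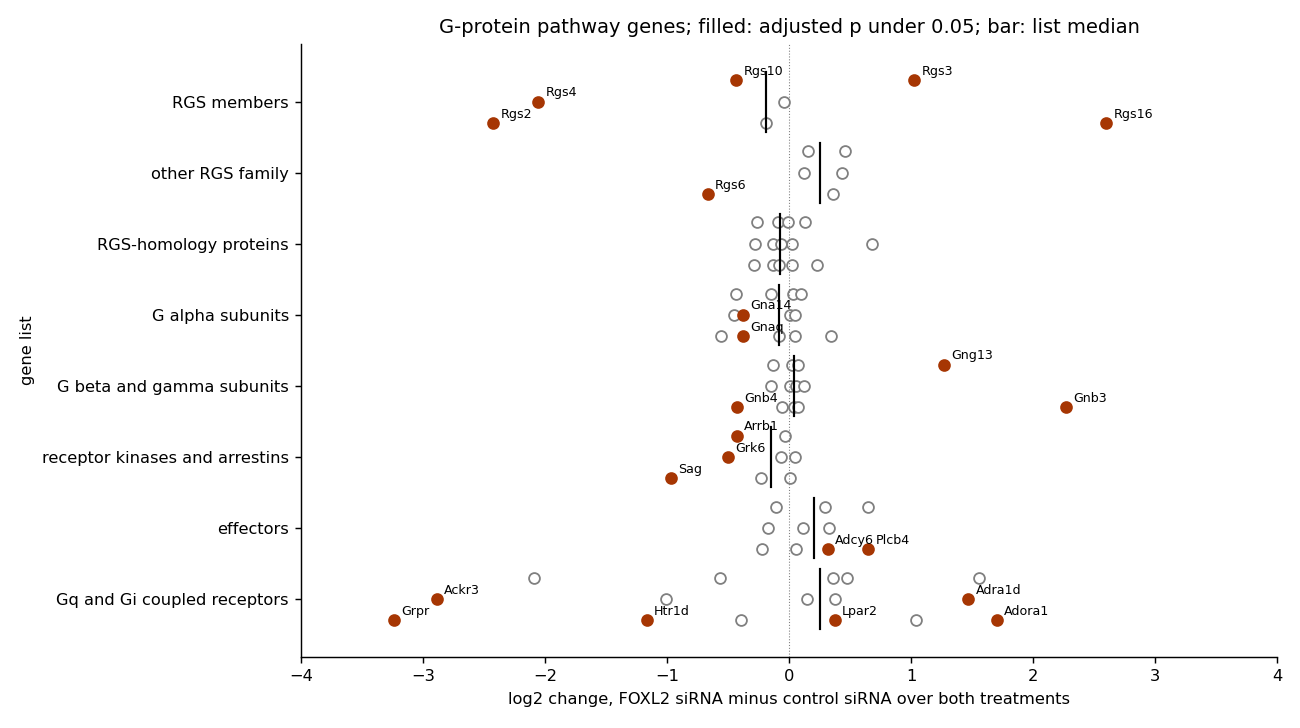
Change on the log2 scale (x axis) between FOXL2 siRNA and control siRNA over both treatments for each tested gene (circles) of the 10 RGS members and of 7 other lists of the pathway (y axis), with list medians as bars. Filled circles passed an adjusted p of 0.05. Rgs2, Rgs4 and Rgs16 lie beyond 2 on the scale, as do Gnb3, Grpr and Ackr3, of which Gnb3 and Grpr were at background with one siRNA.

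Leaving out 1 array changed several of these calls. In the 8 fits that each did so, Grk6, Gnb3, Gnb4, Adra1d, Adora1, Grpr and Htr1d kept their call over both treatments in 8 and Rgs2, Rgs3, Rgs4, Rgs10 and Rgs16 did too. Gng13 and Sag lost it in 1, when replicate 2 of control siRNA with E2 was dropped (adjusted p = 0.0630 and 0.0560). Plcb4 lost it in 2, without that array and without replicate 1 of FOXL2 siRNA with vehicle (highest adjusted p = 0.0586). Gnaq lost it in 4, without the array numbered 2 of any group (highest adjusted p = 0.0553). Adcy6 and Ackr3 lost it in 6 each, all but those without an array numbered 1 of FOXL2 siRNA (highest adjusted p = 0.0848 and 0.136). Ackr3 also lost it under quantile normalization, median centring, no filter and no intensity trend (adjusted p from 0.0502 to 0.0952). The call of Plcb1 with vehicle was lost under normexp, no filter, brightest probe and only the groups compared (limma adjusted p from 0.0654 to 0.125). Over both treatments, Arrb1, Rgs6 and Lpar2 lost their call under no filter (adjusted p = 0.0604, 0.0623 and 0.0741). Adcy6, Arrb1, Gna14 and Inhbb lost it under no intensity trend (adjusted p = 0.0530, 0.0640, 0.0635 and 0.0511), and Adcy6 under normexp (0.0591). Rgs6 lost it in 6, all but those without replicate 1 of control siRNA with vehicle and replicate 2 of FOXL2 siRNA with E2 (highest adjusted p = 0.108). Gna14 lost it in 6, all but those without an array numbered 1 of control siRNA (highest adjusted p = 0.0976). Arrb1 lost it in 7, all but that without replicate 1 of control siRNA with E2 (highest adjusted p = 0.114), and Lpar2 in 8 (highest adjusted p = 0.129). Plcb1 with vehicle lost it in 8 as well (highest adjusted p = 0.190). Of the granulosa markers, Fst and Hsd17b1 kept their call in 8. Inhbb lost it in 3, when replicate 1 of control siRNA with E2 was left out and without an array numbered 2 of FOXL2 siRNA (highest adjusted p = 0.0692). Esr2 lost it in 3, without an array of control siRNA with E2 and without replicate 1 of FOXL2 siRNA with vehicle (highest adjusted p = 0.0602).

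Genes with a pattern like that of each called member were sought among 12626 genes well above background on all 8 arrays. Since the arrays of the siRNAs stand apart for these members, the 8 points share that split and the Pearson correlations are a description. Among the 3 closest to Rgs2 were Prkab2 (r = 0.997) and Ybx1 (0.996). Closest to Rgs4 were Cited1 (0.998), Il17rd (0.993) and Gnpda2 (0.992), and to Rgs16 Idi1 (0.996), Pstpip1 (0.994) and Cst8 (0.993). For Rgs3 they were Syk (0.991), Tlnrd1 (0.980) and Sphk1 (0.979), and among the 3 closest to Rgs10 were Tmem229b (0.993) and Lama1 (0.990).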

How the data were processed

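RNA of 8 samples (50 ng each, amplified, Cy3) was hybridised to 8 one-colour Agilent arrays on 1 slide. Spot intensity was deposited as read by Feature Extraction version 11.5.1.1, background-subtracted and detrended by the authors' software and not scaled between arrays. The authors' value table is on a log2 scale and matched the logarithm of each row's mean processed intensity, up to 1 offset per array, within 0.001 at 98.7 to 98.9% of rows. It served as an alternative.

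Here 3671 control spots of 62976 and 42 non-uniform probes were left out, leaving 55639 probes, with 51.4 to 55.6% of probes well above background per array and 0 saturated. The 75th percentile of an array (275 to 367 units) set its scale. Probes were averaged linearly by the Entrez ID of the authors' table, into 24232 genes, of which 22349 had a RefSeq symbol. Genes whose median scaled signal reached 10, 15645 in all, were tested. The array design is of mm9, and coordinates are printed only for RefSeq promoters of GRCm38.p6.

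Values were fitted with limma 3.58.1 (R 4.3.3) as 4 group means over 8 arrays, with an intensity trend and 4 residual degrees of freedom, two-sided, with Benjamini-Hochberg adjustment over all genes kept and a threshold of 0.05. Probes were fitted in the same way. Where no array of a group was well above background, the fold is a bound, the mean of the brighter group over the lowest signal well above background on each dimmer array or the gene's own signal where that is higher. The members, the other lists and the tests were chosen with earlier results of these data known. Named genes are the 10 members, Foxl2, the Rgs7 partners Gnb5 and Rgs7bp, up to 3 called genes per list and comparison with the largest change, and the 3 genes most correlated with each called member, of which 2 are not reported here. Esr2, Lpar2, Acta2, genes called only with the block and genes given only as detected or not were named after their values were seen.

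Alternatives were normexp (offset 50), quantile normalization, the authors' table, median centring, other filters, the brightest probe, no intensity trend, only the groups compared, the replicate block, leaving out each array, and the methods' rule. The labels number the replicates 1 and 2 and describe independent cultures. Same-numbered samples nevertheless deviated together, with a correlation of the replicate differences of 0.329 to 0.445 over the 6 pairs of groups. The block is therefore given where it changed a call of a member, or the calls of a list over both treatments. Replicates correlated across genes at 0.989 to 0.992. Tables and plots were made with matplotlib 3.10.9, pandas 2.3.3 and numpy 2.4.6 in Python 3.11.15.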

Additional observations from a re-analysis of the deposited data

Results flagged for a closer look

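For 3 members both E2 arrays lay on one side of both vehicle arrays with control siRNA and on the opposite side with FOXL2 siRNA, and the difference was tested. The share of all genes with such a pattern was not counted, so the number of members with it cannot be read as an excess. The difference between the E2 effects, FOXL2 siRNA minus control siRNA, was 1.08 for Rgs3 (limma adjusted p = 0.216), -1.03 for Rgs4 (adjusted p = 0.340) and -0.26 for Rgs12 (adjusted p = 1). None of these passed the threshold over all genes. With the replicate block, Rgs3 and Rgs4 passed it (adjusted p = 0.00333 and 0.0277) and Rgs12 did not (adjusted p = 0.517), where 2.1% of all genes passed. For Rgs3, the probe A_55_P2027117 had a difference of 0.18, beside 1.14 for A_55_P2027102 and 0.93 for A_55_P2027107, and limma called none of these over all probes (adjusted p = 1, 0.404 and 0.390). Whether the probes differ from each other was not tested.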

How the results depend on the processing

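The members called for FOXL2 siRNA with vehicle numbered 3 under every alternative but the replicate block, which gave 5. With E2 they numbered 5, or 4 under the methods' rule and in the 3 fits without 1 array that are named with Rgs10, and over both treatments 5, or 6 with the block. For E2 with FOXL2 siRNA the block gave 1 member (Rgs3) and for the difference between the E2 effects 2 (Rgs3 and Rgs4), against 0 by limma otherwise. For E2 with control siRNA the count was 0 throughout. The block changed no other call of a member. Of 742 member values under alternatives, 720 kept their direction and their side of the threshold, 6 gained a call, 3 lost it and 13 changed sign, none of the latter being called. All 13 came from leaving out 1 array, with ranges for E2 with control siRNA of -0.13 to 0.23 (Rgs2), -0.60 to 0.0496 (Rgs16) and -0.10 to 0.079 (Rgs19), for E2 with FOXL2 siRNA of -0.33 to 0.052 (Rgs2), and for the difference between the E2 effects of -0.38 to 0.0024 (Rgs2), -0.39 to 0.25 (Rgs16) and -0.040 to 0.14 (Rgs19). All genes called with vehicle, with E2 and over both treatments, 1022, 686 and 1967 here, became 2928, 2330 and 4327 with the block, 631, 379 and 1520 without the intensity trend, 736, 460 and 1559 with no filter, and as few as 309, 130 and 1181 without 1 array. With vehicle and with E2 they were 585 and 472 with only the groups compared and 460 and 368 by the methods' rule, neither of which was run over both treatments or for the difference. For all genes, the block gave 182 for E2 with control siRNA, 96 with FOXL2 siRNA and 332 for the difference, against 3, 2 and 38 (7 and 2 for E2 with normexp, 71 and 34 by the methods' rule, at most 5 and 4 without 1 array, and 1 or 0 with no filter). The difference gave 9 with no filter, 15 without the trend and 4 to 10 without 1 array. The causes were not tested. With 2 arrays per group, small changes such as those of Rgs10, Rgs12 and Rgs19 are near the limit of what could be called, and Rgs5, Rgs7 and Rgs14 were too close to background to be measured.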
